A study of Peromyscus maniculatus with 6 samples.

Results

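The transforming growth factor beta (TGF-beta) genes described here are 3 ligands (Tgfb1, Tgfb2 and Tgfb3), 2 receptors (Tgfbr1 and Tgfbr2), the signal carriers Smad2 and Smad3, the SMAD corepressor Skil and the induced matrix protein gene Tgfbi. They were taken by symbol from the deposited count table, and all 9 of 9 symbols were found, each on 1 row, among 24281 genes in all. All 9 also passed the filter on low counts that left 13503 genes for testing. The source was the deer mouse, Peromyscus maniculatus, of the BW stock at 4 weeks of age, whose ear tissue was digested to start fibroblast cultures. The animals were BW35770, BW35772 and BW35773, and a control and a tunicamycin library (5 h of exposure) was made from each, so the 6 libraries form 3 pairs. Cells of both groups were passaged primary cultures, and the treatment text describes 300000 cells per well with 24 h of growth before tunicamycin. Tunicamycin is labelled as used at 5 mg per mL, a value not checked here. No label names the vehicle of the control wells or the number of passages.

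TGF-beta ligands are secreted in a latent form that is held in the matrix and must be released before it can signal. The released ligand binds TGFBR2, which recruits and activates the kinase TGFBR1, and TGFBR1 phosphorylates SMAD2 and SMAD3, which enter the nucleus with SMAD4 and switch genes on or off. In skin fibroblasts the pathway is best known for driving collagen production and the contractile myofibroblast state. Tunicamycin blocks N-linked glycosylation and so stresses the endoplasmic reticulum (ER), and the ligand precursors and receptors are themselves glycoproteins. The comparison asks which of these RNAs differed after ER stress was induced.

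Total counts on genes ran from 37852385 to 49352126 per library, and the 9 genes made up 0.102 to 0.122% of them. The stress response was present in every pair, since all 6 genes used to check it rose, from a log2 fold change of 1.48 for Hspa5, the ER chaperone BiP, to 4.66 for Chac1, a glutathione-degrading enzyme. Fibroblast markers (9 of 10 in the table) summed to 13811 to 17821 CPM (counts scaled to library size) in control and 13740 to 15963 CPM in tunicamycin libraries. The leading gene of that set, Vim, alone had a mean of 8841 CPM over the 6 libraries. Cartilage markers (9 of 10 in the table, led by Col2a1) were also high, at 1899 to 8481 CPM in control and 2113 to 9025 CPM in tunicamycin libraries. They were lowest in both libraries of animal BW35770. Keratinocyte and endothelial markers summed to at most 23.1 and 4.68 CPM in any library, with Tie1 at 0 counts in all 6. Immune markers (6 of 8 in the table, led by Cd68) summed to 87.3 to 176 CPM in control and 69.5 to 154 CPM in tunicamycin libraries, with Cd3e at 0 counts in all 6 and Ptprc, the pan-leukocyte marker, at 1 count in 1 library. Melanocyte and Schwann markers summed to 98.6 to 146 and 80.7 to 106 CPM. Of these S100b alone had a mean of 86.2 CPM over the 6 libraries. The immune sum and the melanocyte and Schwann sum were lower with tunicamycin in each pair, as were the fibroblast, keratinocyte and endothelial sums. Smooth muscle and pericyte markers, led by Cspg4 (mean 624 CPM over the 6 libraries), summed to 473 to 762 and 421 to 891 CPM. Called lower were 1 of 2 tested keratinocyte, 1 of 6 smooth muscle and pericyte, and 1 of 4 melanocyte and Schwann markers. Of all tested genes 2.4% were called lower. No other tested marker was called. The part of these markers in the results was not tested. In bulk RNA, fewer cells of a type and less RNA per cell cannot be told apart.

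None of the 9 TGF-beta genes passed the test after 5 h of tunicamycin. In edgeR's quasi-likelihood test with the animal as a block, 0 rose and 0 fell at a Benjamini-Hochberg adjusted p under 0.05, while 5.47% of all tested genes were called (3.07% higher and 2.4% lower). At an unadjusted p under 0.05 there were 0 higher and 1 lower, Tgfb3, while 2819 of all 13503 tested genes had such a p. With no replicate block 0 rose and 0 fell as well, against 1.78% and 0.792% of all tested genes, with 0 at an unadjusted p under 0.05. DESeq2 and limma-voom also called 0, with 0 higher and 1 lower and with 1 higher and 1 lower at an unadjusted p under 0.05. For these other fits the number of all tested genes under that unadjusted threshold is not given. The control and tunicamycin ranges of CPM overlapped for 9 of 9 genes, whereas they did not overlap for 22.3% of all tested genes. The fitted log2 fold changes ran from -0.33 (Tgfb3) to 0.43 (Skil), with a median of 0.15, against a median of -0.03 over all tested genes. For 8 of the 9 genes the 95% interval of the change lay inside a 2-fold rise or fall, and the exception was Skil. A p that misses the threshold does not show that a gene did not differ, so these intervals give the sizes of change that the 3 pairs allow.

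**Figure D1:**
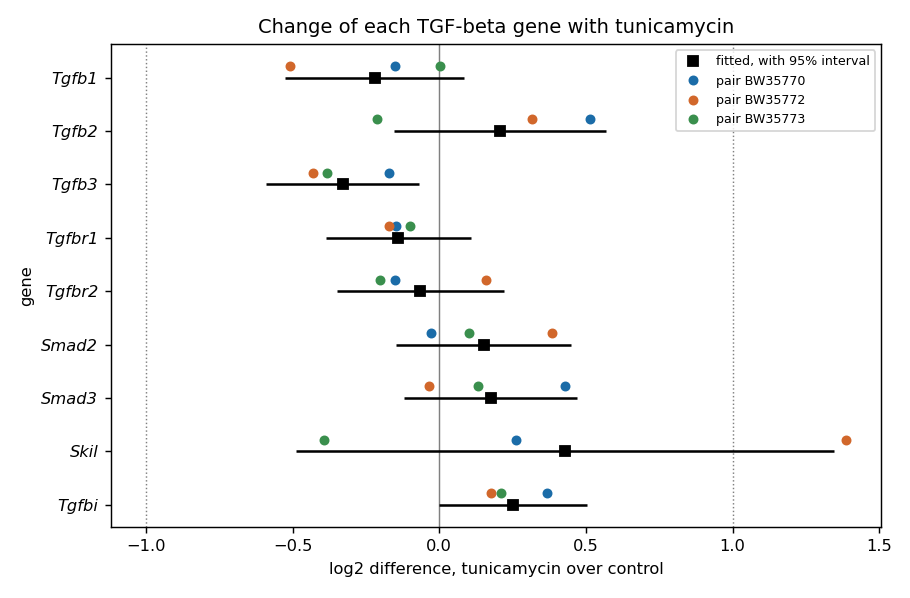
Log2 difference between tunicamycin and control for each TGF-beta gene (horizontal axis, log2 units). Squares with lines are edgeR estimates with 95% intervals, coloured points are the differences within the 3 animals, and dotted lines mark a 2-fold fall or rise. The interval of Skil alone among the 9 reaches past the dotted line, and that of Tgfb3 lies wholly below 0.

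Tgfb1 encodes the isoform most widely linked to fibrosis. Its row (ENSPEMG00000016409) lies on scaffold KI615671.1, bases 706819 to 725390, minus strand, with 7 exons. Control libraries of animals BW35770, BW35772 and BW35773 had 170.4, 172 and 165 CPM, and their tunicamycin libraries 154, 121 and 165 CPM. The 3 controls lay within 1.04-fold of each other, and the treated library of BW35772 alone stood well below them. The log2 fold change was -0.22 ± 0.13 (SE), with a 95% interval of -0.52 to 0.09 (edgeR adjusted p = 0.394). Within pairs the log2 differences were -0.15, -0.51 and 0.0013 in the order of animals above, and without animal BW35772 the log2 fold change was -0.08.

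Tgfb2, the isoform known for its role in heart and craniofacial development, varied between animals more than the other ligands. The row (ENSPEMG00000014434) lies on scaffold KI615335.1, bases 1579225 to 1671443, minus strand, with 9 exons. Controls had 109, 200.2 and 174 CPM in animals BW35770, BW35772 and BW35773, and tunicamycin libraries 156, 249 and 150.4 CPM. The level was higher after tunicamycin in the first 2 animals and lower in the third, with log2 differences of 0.51, 0.32 and -0.21. The fit gave a log2 fold change of 0.21 ± 0.15 (95% interval -0.15 to 0.57, edgeR adjusted p = 0.507). The estimate depended on the animals: it was 0.053 without BW35770 and 0.15 without BW35772 (edgeR adjusted p = 0.986 and 0.790). Without BW35773 it was 0.44 and passed the test (edgeR adjusted p = 0.0458). That fit called 5.91% of all tested genes higher and 6.06% lower, against 3.07% and 2.4% with all animals. Each fit without an animal rested on 2 pairs.

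Tgfb3, the isoform tied to palate closure, had the smallest p-value of the 9 genes. Its row (ENSPEMG00000023520) lies on scaffold KI615772.1, bases 560371 to 584507, minus strand, with 7 exons. Controls had 225, 250.3 and 189 CPM and tunicamycin libraries 200.0, 186 and 145 CPM, in the same order of animals. The treated library was the lower of the pair in all 3 animals, although the control of BW35773 lay below the treated library of BW35770. The mean was 222 ± 30.7 CPM in controls and 177 ± 28.4 CPM after tunicamycin (SD, n = 3 animals each). The log2 fold change was -0.33 ± 0.11 (95% interval -0.59 to -0.07), with an edgeR p of 0.0203 before and 0.146 after adjustment, and 1869 tested genes had a smaller p-value. With each library's trend with exon length removed the log2 fold change was -0.37 and Tgfb3 was called lower (edgeR adjusted p = 0.0474). That fit called 5.39% of all tested genes higher and 5.57% lower, against 3.07% and 2.4% without that step.

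**Figure D2:**
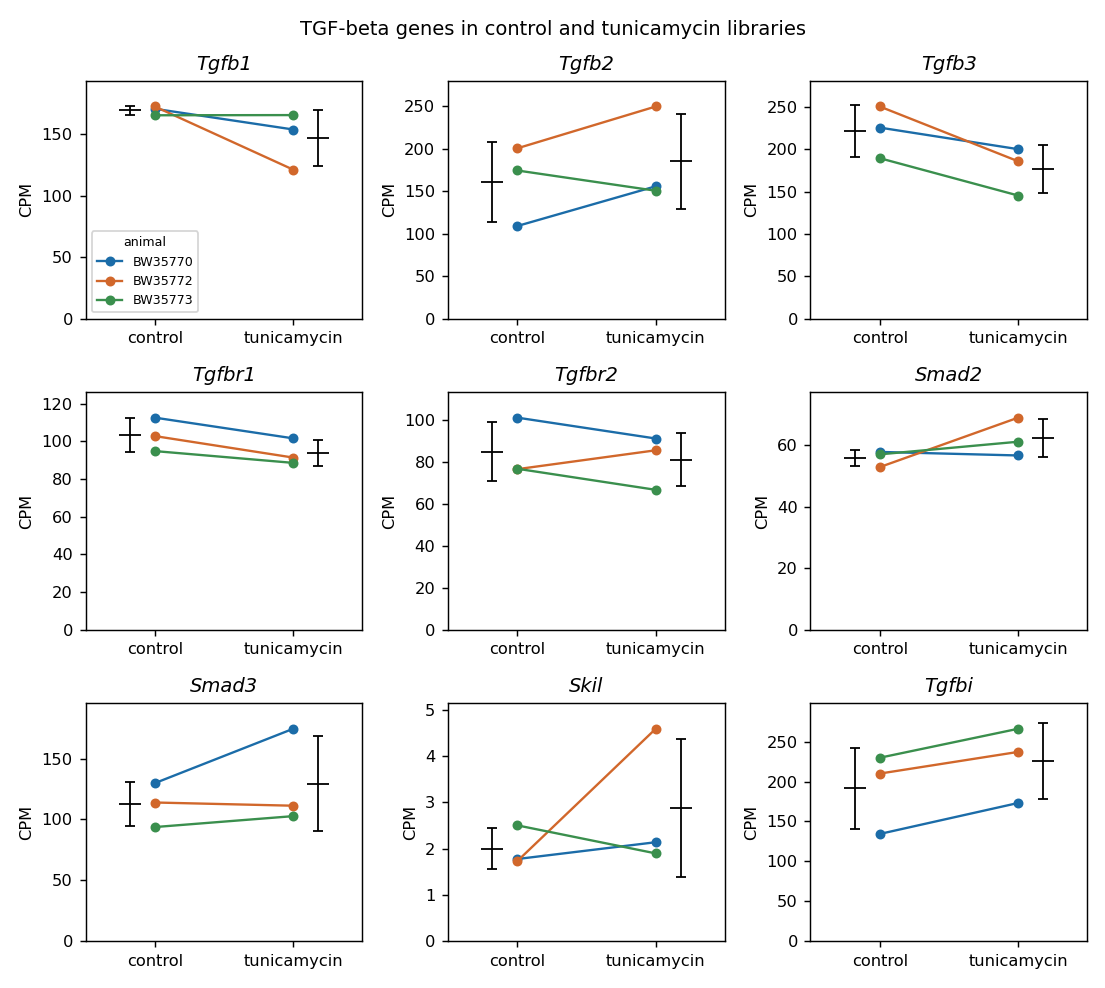
TMM-scaled CPM (vertical axes, from 0) of each TGF-beta gene in control and tunicamycin libraries. Coloured lines join the pair of libraries of each animal, and black marks are the mean ± SD of 3 libraries. The 3 animals do not all move the same way for 6 of the 9 genes, while all lines fall for Tgfb3 and Tgfbr1 and all rise for Tgfbi.

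Tgfbr1, the type I receptor kinase, had the narrowest spread of pair differences among the 9 genes. The row (ENSPEMG00000000006) lies on scaffold KI615349.1, bases 4489942 to 4519920, minus strand, with 8 exons. Controls had 113, 103 and 94.9 CPM in animals BW35770, BW35772 and BW35773, and tunicamycin libraries 102, 91.4 and 88.6 CPM. The treated library was slightly lower in every pair, by 0.15, 0.17 and 0.10 on the log2 scale, and the 2 ranges overlapped. Its log2 fold change was -0.14 ± 0.11 (95% interval -0.39 to 0.11, edgeR adjusted p = 0.517).

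Tgfbr2, the ligand-binding type II receptor, lay closest to 0 change. Its row (ENSPEMG00000019375) lies on scaffold KI615320.1, bases 2519836 to 2621842, plus strand, with 9 exons. Controls had 101, 76.5 and 76.7 CPM and tunicamycin libraries 91.1, 85.5 and 66.6 CPM. Animal BW35772 was higher after treatment and the others lower, and the log2 fold change was -0.06 ± 0.12 (95% interval -0.35 to 0.22, edgeR adjusted p = 0.818). Its sign turned without animal BW35773, to 0.03. On the scale of counts per kb of exon (RPKM), the ratio of Tgfbr1 to Tgfbr2 was 1.10, 1.32 and 1.22 in controls and 1.10, 1.05 and 1.31 after tunicamycin, nearly level in the first animal, lower in the second and higher in the third.

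Smad2 and Smad3 carry the signal from the receptors to the nucleus. The Smad2 row (ENSPEMG00000020383) lies on scaffold KI615352.1, bases 2120138 to 2170437, plus strand, with 11 exons. Controls had 57.9, 52.9 and 57.1 CPM and tunicamycin libraries 56.7, 69.1 and 61.2 CPM, the treated library of BW35772 being the highest of the 6. For Smad2 the log2 fold change was 0.15 ± 0.13 (95% interval -0.15 to 0.45, edgeR adjusted p = 0.565), 0.035 without animal BW35772 and 0.24 without BW35770. The Smad3 row (ENSPEMG00000017958) lies on scaffold KI615330.1, bases 833072 to 951818, plus strand, with 10 exons. Smad3 stood at 129.8, 114 and 93.7 CPM in controls and at 175, 111 and 103 CPM after tunicamycin. Here animal BW35770 had the highest library and the largest difference, 0.43 on the log2 scale, against -0.03 and 0.13 in the others. For Smad3 the log2 fold change was 0.18 ± 0.13 (95% interval -0.12 to 0.47, edgeR adjusted p = 0.489). It was 0.049 without animal BW35770 and 0.28 without BW35772. The ratio of Smad3 to Smad2 in RPKM was 2.36, 2.27 and 1.73 in controls and 3.24, 1.70 and 1.77 after tunicamycin, higher in one animal, lower in another and nearly level in the last.

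Skil encodes SnoN, a corepressor that binds SMADs and is itself induced by TGF-beta, so it closes a negative feedback loop. The row named Skil (ENSPEMG00000014296) holds 1 exon of 1107 bases on scaffold KI615327.1, bases 7278508 to 7279614, plus strand. It lies between Prkci and Cldn11 in the table, the same neighbours that Skil has in the RefSeq annotation of the deer mouse assembly HU_Pman_BW_mat_3.1. Skil is a gene of several exons in other mammals, so this row may cover only a piece of it. Counts were 75, 63 and 100 in controls and 96, 240 and 76 after tunicamycin, or 1.77, 1.73 and 2.50 CPM against 2.14, 4.59 and 1.89 CPM. The treated library of BW35772 stood far above the other 5, and the treated library of BW35773 was below its control. The log2 fold change was 0.43 ± 0.39 (95% interval -0.49 to 1.35, edgeR adjusted p = 0.600), and -0.07 without animal BW35772. The interval holds both no change and a 2-fold rise.

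Tgfbi encodes an adhesive matrix protein named for its induction by TGF-beta. Its row (ENSPEMG00000015916) lies on scaffold KI615398.1, bases 1708334 to 1738649, minus strand, with 17 exons. Controls had 134, 209.9 and 229.8 CPM and tunicamycin libraries 173, 237 and 266 CPM. The treated library was higher in all 3 animals, by 0.37, 0.18 and 0.21 on the log2 scale, but animal BW35770 after treatment remained below the controls of both other animals. The mean was 191 ± 50.5 CPM in controls and 225 ± 47.6 CPM after tunicamycin (SD, n = 3 animals each). The log2 fold change was 0.25 ± 0.11 (95% interval -0.0013 to 0.50), and Tgfbi was not called (edgeR adjusted p = 0.242). Across the 9 genes, 3 went the same way in all 3 pairs (Tgfbi higher, Tgfb3 and Tgfbr1 lower), while 42.4% of all tested genes did so.

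Levels also differed between animals. Among controls, BW35770 had the lowest level of Tgfb2 and Tgfbi, and the highest level of those genes was 1.84-fold and 1.71-fold above it. That animal also had the highest control level of Tgfbr1, Tgfbr2, Smad2 and Smad3. The SD of log2 CPM between the 3 controls ran from 0.03 for Tgfb1 to 0.46 for Tgfb2, against a median of 0.17 over all tested genes. The summed cartilage markers were 1899 and 2113 CPM in the control and treated library of BW35770 and 6213 to 9025 CPM in the other 4 libraries. Their part in the levels of Tgfb2 and Tgfbi was not tested.

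To set the genes beside each other, levels were divided by annotated exon length. In controls Tgfb1 was highest at 77.2 ± 1.69 RPKM (SD, n = 3 animals), followed by Tgfbi at 70.3 ± 18.5, Tgfb3 at 65.1 ± 9.01 and Tgfb2 at 28.7 ± 8.40 RPKM. Smad3 stood at 20.3 ± 3.26, Tgfbr1 at 18.4 ± 1.58, Tgfbr2 at 15.3 ± 2.55, Smad2 at 9.58 ± 0.455 and Skil at 1.81 ± 0.393 RPKM. Ranges of neighbours in this order overlapped except between Tgfb3 and Tgfb2, between Tgfbr2 and Smad2, and between Smad2 and Skil. After tunicamycin Tgfbi came first at 82.8 ± 17.5 RPKM and Tgfb1 second at 66.9 ± 10.5 RPKM, with overlapping ranges, and the other 7 kept their order. In that group Smad3 and Tgfbr1, Tgfbr2 and Smad2, and Smad2 and Skil were the neighbours without overlap. By mean CPM, 8 of the 9 genes lay above 75.0% or more of the tested genes, and Skil above 19.6%.

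**Figure D3:**
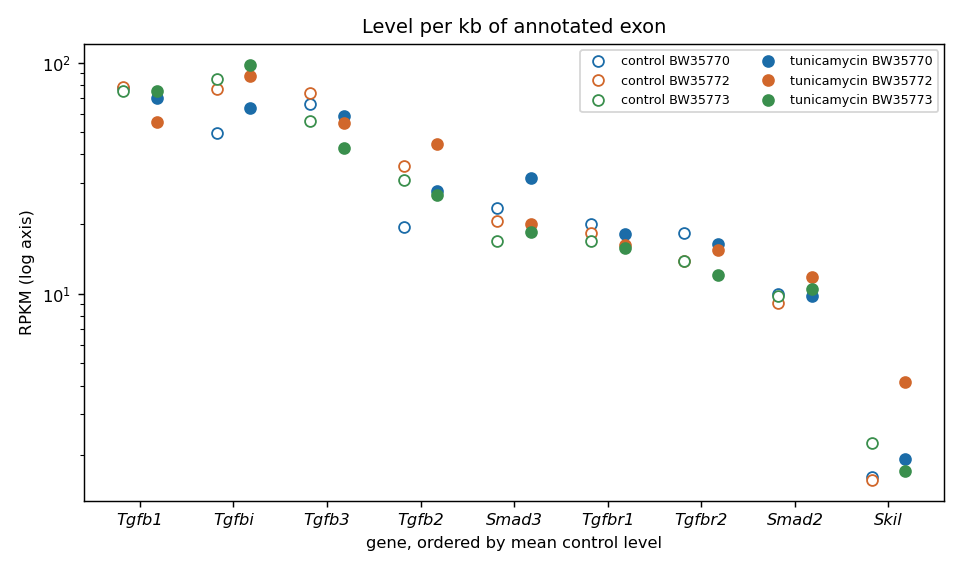
Level of each TGF-beta gene per kb of annotated exon (RPKM, vertical log axis), ordered by the mean of the controls. Open points are control and filled points tunicamycin libraries, coloured by animal. Tgfb1, Tgfbi and Tgfb3 lie above the receptors and SMADs in every library, and Skil lies lowest, at 1.56 to 4.15 RPKM.

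Summed over the 3 ligands, RPKM was 163, 188 and 162 in the controls of BW35770, BW35772 and BW35773 and 157, 154 and 145 after tunicamycin, lower in each pair. Tgfb1 made up 47.6, 41.8 and 46.5% of that sum in controls and 44.7, 35.8 and 52.0% after tunicamycin. The share of Tgfb2 was 11.9, 19.0 and 19.2% in controls and 17.7, 28.9 and 18.5% after tunicamycin, so it was larger in the first 2 animals and slightly smaller in the third. The share of Tgfb3 was 40.5, 39.2 and 34.3% in controls and 37.5, 35.4 and 29.5% after tunicamycin, smaller in each pair. With 3 pairs an exact two-sided permutation test cannot give a p below 0.25, so these shares are given without a test.

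**Figure D4:**
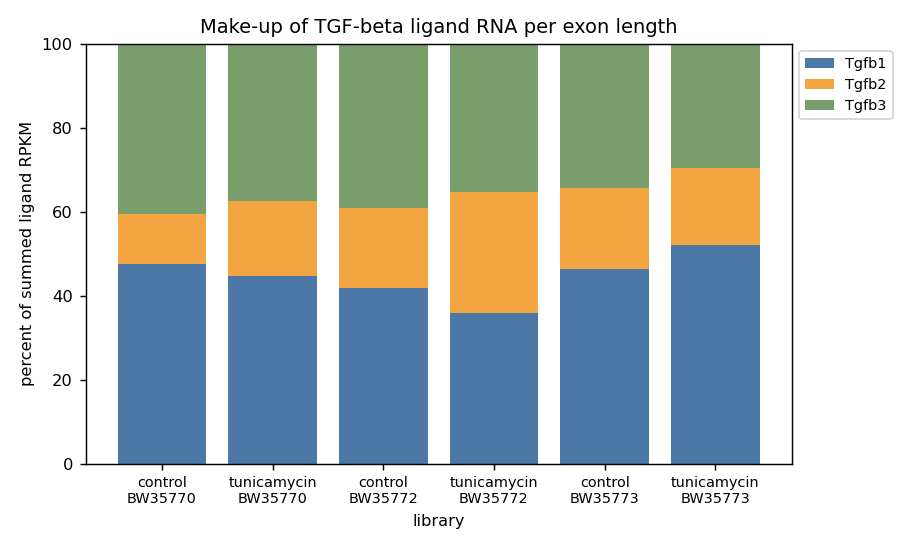
Percent of the summed RPKM of Tgfb1, Tgfb2 and Tgfb3 that each ligand made up (vertical axis), with 1 bar for each library. The segment of Tgfb3 is shorter in the tunicamycin bar than in the control bar of every animal, and the segment of Tgfb2 is longer in animals BW35770 and BW35772.

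Other genes of the pathway were taken from 6 lists of 110 genes, of which 101 were in the table and 94 were tested. Of these 6 rose and 10 fell, or 17.0% called, against 5.47% of all tested genes, and the median log2 fold change was -0.15. The lists were chosen with earlier results of these data known, and hold genes that serve other pathways, such as Atf3 and Jun. The shares called, here and for each list below, therefore describe the lists. Whether TGF-beta pathway genes were called more often than other genes was not tested. Of the 16 calls, 8 were kept in the fit with no replicate block (Atf3, Crebbp, Furin, Lif, Rnf111, Snai1, Sphk1 and Wisp1) and 3 without animal BW35770 (Atf3, Snai1 and Wisp1). Over all genes, calls fell to 74 higher and 37 lower without that animal, from 415 and 324. All 16 genes kept the sign of their log2 fold change in that fit.

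Among genes that hold latent TGF-beta in the matrix or release it, 0 of 20 tested rose and 3 fell, with a median log2 fold change of -0.23. The share called was 15%, against 5.47% of all tested genes. Furin, the protease that cleaves the TGF-beta precursors, went from 166, 162 and 150.2 CPM in controls to 91.0, 86.8 and 82.2 CPM after tunicamycin. All 3 treated libraries lay below all 3 controls, and the log2 fold change was -0.88 ± 0.10 (edgeR adjusted p = 0.00524). Emilin1, an elastic fibre glycoprotein that restrains precursor processing, changed by -0.64 ± 0.11 (edgeR adjusted p = 0.0193, and 0.0541 with no replicate block). Mmp14, a membrane protease that can release latent TGF-beta, changed by -0.55 ± 0.11 (edgeR adjusted p = 0.0397, and 0.0624 with no replicate block). Itgb1, the beta-1 integrin chain, had -0.31 ± 0.11 and was not called (edgeR adjusted p = 0.174), except with the exon-length trend removed (-0.35, edgeR adjusted p = 0.0432). With that trend removed 5.57% of all tested genes were called lower. Without animal BW35770 the calls of Furin, Emilin1 and Mmp14 were not kept, while their log2 fold changes were -0.89, -0.64 and -0.50.

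Of 15 tested co-receptors and receptor regulators 0 rose and 1 fell (6.67% called, against 5.47% of all tested genes), and the median log2 fold change was -0.0034. The gene that fell was Bambi, a pseudoreceptor without a kinase domain that dampens TGF-beta and BMP signals. It stood at 63.3, 102 and 100.1 CPM in controls and at 35.2, 52.8 and 51.5 CPM after tunicamycin, lower in each pair by 0.84 to 0.96 on the log2 scale. For Bambi the log2 fold change was -0.92 ± 0.11 (edgeR adjusted p = 0.00571, but 0.0999 with no replicate block and 0.0932 without animal BW35770). Vasn, a ligand-trapping membrane protein, had -0.30 ± 0.12, Cd109, a co-receptor that lowers signalling, -0.30 ± 0.12, and Smurf1, a ubiquitin ligase that acts on SMADs and receptors, 0.29 ± 0.11. None of the last 3 was called (edgeR adjusted p = 0.193, 0.221 and 0.200).

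Among SMAD partners and corepressors 3 of 13 tested rose and 2 fell, with a median log2 fold change of 0.21. That is 38.5% called, against 5.47% of all tested genes, with Atf3 and Jun among the calls. Smad7, the inhibitory SMAD that TGF-beta induces as feedback, went from 37.3, 38.4 and 35.1 CPM to 20.1, 27.4 and 19.6 CPM, so every treated library lay below every control. Its log2 fold change was -0.74 ± 0.14 (edgeR adjusted p = 0.0276, but 0.0699 with no replicate block and 0.377 without animal BW35770). Crebbp, a histone acetyltransferase recruited by SMADs, rose by 0.90 ± 0.13 (edgeR adjusted p = 0.0120, and 0.164 without animal BW35770). Rnf111, the ubiquitin ligase Arkadia that degrades Smad7 and SnoN proteins, rose by 0.52 ± 0.11 (edgeR adjusted p = 0.0438), but not without animal BW35770 or BW35772 (0.439 and 0.0903). Atf3 and Jun are known first as stress-responsive transcription factors, and serve many pathways besides TGF-beta. Atf3 rose by 2.21 ± 0.18 (edgeR adjusted p = 0.000988), and Jun changed by -0.84 ± 0.15 (edgeR adjusted p = 0.0222, but 0.221 with no replicate block and 0.201 without animal BW35770).

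**Figure D5:**
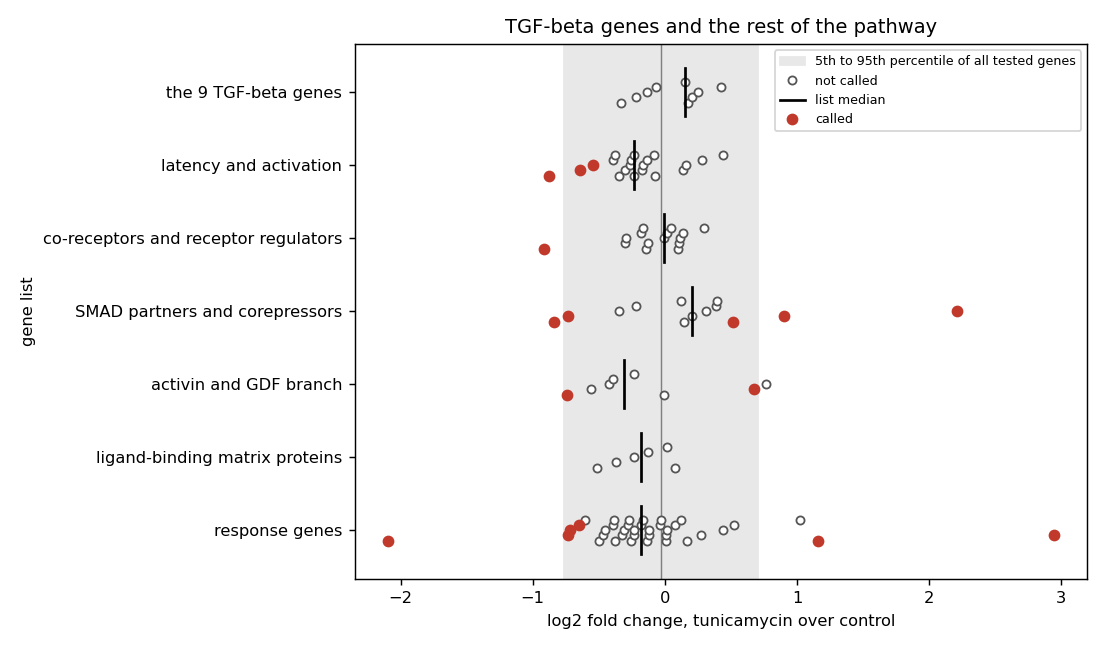
Log2 fold change with tunicamycin (horizontal axis) of each tested gene, with 1 row for each gene list. Red points were called, open points were not, black bars are list medians, and the grey band spans the 5th to 95th percentile of all tested genes, -0.76 to 0.71. All 9 TGF-beta genes lie inside the band and are open, while 16 other pathway genes were called, Smad7 being shown in both of the lists that hold it.

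In the activin and growth differentiation factor branch, which uses the same SMADs through its own receptors, 1 of 8 tested genes rose and 1 fell (median log2 fold change -0.31). That is 25% called, against 5.47% of all tested genes. Acvr2a, a type II activin receptor, rose by 0.67 ± 0.13 (edgeR adjusted p = 0.0332, but 0.109 with no replicate block and 0.420 without animal BW35770). Gdf11, a ligand of that branch, changed by -0.74 ± 0.14 (edgeR adjusted p = 0.0265, but 0.156 with no replicate block and 0.308 without animal BW35770). Inhba, the activin A subunit, had -0.42 ± 0.14, and Fstl3, an activin-binding protein, -0.39 ± 0.18, and neither was called (edgeR adjusted p = 0.148 and 0.268). Of 6 tested matrix proteins that bind TGF-beta or lie in its matrix stores, 0 rose and 0 fell in edgeR, DESeq2 and limma-voom (median log2 fold change -0.18). At an unadjusted p under 0.05 there were 0 higher and 2 lower with each of these tools, while 2819 of all 13503 tested genes had such a p in edgeR. The number lower was 3 with the exon-length trend removed, 0 with no replicate block, and 0 to 1 with animals left out. The smallest p-values of these matrix proteins in edgeR were those of the small proteoglycan Lum, elastin (Eln), Aspn and biglycan (Bgn), with log2 fold changes of -0.37, -0.51, -0.24 and -0.13. With the exon-length trend removed Lum was called lower (-0.38, edgeR adjusted p = 0.0351), as were 5.57% of all tested genes.

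Of 37 tested response genes, which fibroblasts or other cells are known to switch with TGF-beta, 2 rose and 4 fell, with a median log2 fold change of -0.18. The share called was 16.2%, against 5.47% of all tested genes. Snai1, a zinc-finger repressor of epithelial genes, went from 128, 116 and 103 CPM to 34.1, 22.5 and 25.5 CPM, a fall in every pair and with no overlap. Its log2 fold change was -2.10 ± 0.14 (edgeR adjusted p = 0.000419). Wisp1, the matricellular protein CCN4, rose by 1.16 ± 0.17 (edgeR adjusted p = 0.0119). Lif, a cytokine of the interleukin 6 family, rose by 2.95 ± 0.48 from a low level, with 10, 5 and 11 counts in controls and 74, 109 and 55 after tunicamycin (edgeR adjusted p = 0.0171, and 0.141 without animal BW35770). DESeq2 gave Lif no adjusted p. Sphk1, a sphingosine kinase, changed by -0.72 ± 0.12 (edgeR adjusted p = 0.0181, and 0.261 without animal BW35770). Smad7, also in the list of SMAD partners, and Cdkn1a, the cell cycle inhibitor p21, at -0.65 ± 0.11 (edgeR adjusted p = 0.0218, but 0.0832 with no replicate block and 0.358 without animal BW35770), were the other falls. The target gene Ctgf, chosen after its values were seen, had a log2 difference of -0.03 ± 0.12 and was not called (edgeR adjusted p = 0.928).

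Genes whose level followed a TGF-beta gene most closely were sought for Tgfb3, Tgfbi and Tgfb1, the 3 with the smallest p-values. Likeness was Pearson's r of log2 CPM over the 6 libraries, which are 3 pairs and share animals, among 8907 named genes. For Tgfb3 these were Kctd21, Syt12 and Msl1, at r of 0.980, 0.977 and 0.976. For Tgfbi they were C330027C09Rik, Slc25a22 and Ube2c, at r of 0.994, 0.982 and 0.981, and for Tgfb1 Elp5, Gatc and Nsmce2, at r of 0.998, 0.998 and 0.994. With so few libraries high values are common, since 120, 77 and 282 genes had r above 0.9 with Tgfb3, Tgfbi and Tgfb1, and none of the 9 genes named here was called in the edgeR test.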

How the data were processed

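The deposited table holds whole-number read counts per gene for the 6 libraries. Reads were aligned with STAR 2.6.1, handled with SAMtools 1.6 and counted with featureCounts of Subread, per the submitters' processing notes. Build, annotation release and the handling of multi-mapping reads were not given in the sources used here, and coordinates are those of the table. The deposited table is titled strand-specific. RPKM uses the exon length deposited by the authors, so an incomplete gene model shifts it. Names came from the table, in which 6252 of 24281 IDs have none.

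Counts were analysed with edgeR 4.0.16 (R 4.3.3): filterByExpr (minimum count 10, minimum total 15), TMM scaling (trimmed mean of M values), and the two-sided quasi-likelihood test of treatment with the animal as a block, with Benjamini-Hochberg adjustment over all 13503 tested genes and a threshold of 0.05. Rose, fell and called refer to that threshold. SE is the size of the log2 fold change divided by the square root of F, and intervals use the test's degrees of freedom. Pair differences use log2 CPM with a prior count of 2. Sample titles carry the animal's number, and deviations from group means correlated at 0.66, 0.41 and 0.22 across genes within the pairs of BW35770, BW35772 and BW35773. With the block, p-values reflect how the difference between treated and control cultures varied over the 3 animals, not the differences in level between animals. No library was a copy of another (chi-square per degree of freedom of 32.3 to 292 between libraries). As alternatives, scalings and filters were varied, DESeq2 1.42.0 and limma-voom (limma 3.58.1) were run, the block was dropped, and each animal was left out. The test was checked on simulated data.

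The 9 genes, the lists and the tests were chosen with earlier results of these data known. Named genes are the 9, the 4 smallest p-values of each list, the 3 most alike genes for each of the 3 TGF-beta genes with the smallest p-values, and 6 stress genes. Rnf111, Cdkn1a, Ctgf and cell type markers named singly were chosen after their values were seen.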

Additional observations from a re-analysis of the deposited data

How the results depend on the processing

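The 9 TGF-beta genes had 0 calls in either direction in every alternative run except 2. With each library's trend with exon length removed 1 was called lower (Tgfb3), and with animals left out 0 to 1 were called higher (Tgfb2, without BW35773). Signs turned for Skil without animal BW35772 and for Tgfbr2 without BW35773, and with animals left out their log2 fold changes ran from -0.067 to 0.88 and from -0.18 to 0.032. Other pathway genes called numbered 6 higher and 10 lower, against 16 lower with the exon-length trend removed and 3 lower with no replicate block, and 2 to 9 higher and 1 to 16 lower with animals left out. Over all tested genes 415 rose and 324 fell, against 709 and 622 with DESeq2, 728 and 752 with the exon-length trend removed, 241 and 107 with no replicate block, and 74 to 806 and 37 to 826 with animals left out. Unpaired fits count differences between animals as error, and fits without an animal rest on 2 pairs. Scalings moved the median change of all genes by less than 0.1 on the log2 scale. Skil had the fewest reads of the 9 genes, 63 to 240 counts a library, and the part of depth in the width of its interval was not tested.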
